A study of Mus musculus with 2 samples.

Results

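A set of 10 genes of the endoplasmic reticulum (ER) stress and heat shock responses was followed across the cell classes of mouse brown adipose tissue, the heat-producing fat. They were taken by symbol from the gene lists of the count tables, and all 10 were found among 22620 genes. They are the transcription factors Atf4, Atf5 and Xbp1, the ER chaperone genes Hspa5, Calr and Dnajb9, and the cytosolic heat shock genes Hspa1a, Hspa1b, Hsph1 and Dnajb1. The tissue came from mice of 4 weeks and was profiled as single nuclei in 2 droplet libraries: a Flox library and a KO library. Per the series design, Nfe2l1 is the gene knocked out; it encodes NFE2L1 (NRF1), a transcription factor known to drive proteasome genes. The labels name neither the Cre driver, nor the part of the gene removed, nor how many mice went into each library.

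The unfolded protein response starts at 3 membrane sensors of the ER: IRE1 splices the Xbp1 transcript into an active form, PERK phosphorylates eIF2 alpha and so lets Atf4 and Atf5 be translated, and ATF6 is cut to release a transcription factor. Their target genes include chaperones such as BiP (Hspa5) and the ER-associated DnaJ protein ERdj4 (Dnajb9). The heat shock response is a separate arm in the cytosol and nucleus, in which HSF1 drives the inducible HSP70 genes Hspa1a and Hspa1b, the HSP110 gene Hsph1 and the HSP40 gene Dnajb1. Both arms answer unfolded protein, the substrate that the proteasome also removes. These counts are of RNA, so splicing of Xbp1, phosphorylation and translation were not measured.

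The library labelled Flox held 16145 barcodes with 46528077 UMIs (counted RNA molecules), and the library labelled KO held 13030 with 43080725. After removal of low-quality barcodes and doublets, 13986 and 11570 nuclei remained (median 2254.5 and 2648 UMIs), and 48 of their barcodes occurred in both libraries. Median mitochondrial UMIs were 0.42% and 1.12%. Nuclei fell into 14 clusters of at least 20 nuclei, and 6 classes named from marker genes had at least 100 nuclei in each library: adipocyte-like (8930 and 8262 nuclei), fibroblast/progenitor-like (2084 and 1440), endothelial-like (1551 and 970), macrophage/monocyte-like (499 and 365), pericyte/smooth muscle-like (343 and 217) and T/NK-like (217 and 190). Adipocyte marker genes summed to 23713 and 24074 CPM in the adipocyte-like class. The Nfe2l1 transcript went against its label: it stood at 131 CPM (UMIs of the gene per 1000000 UMIs of the class) in the adipocyte-like nuclei of the library labelled Flox and at 313 CPM in those of the library labelled KO, a log2 ratio of 1.26. It is not known whether the 3′ counts read the stretch that was deleted, so each library is named by its label only. With 1 library per genotype there was no test between genotypes: intervals are exact 95% intervals for counting error only, a gene is counted as higher or lower at 1.5-fold with at least 50 UMIs in the class, and each log2 ratio sets KO over Flox after adding 0.5 UMI.

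In adipocyte-like nuclei, 7 of the 10 genes were more abundant in the library labelled KO, and the ER genes among them lay in a narrow band. Hspa5, Calr, Dnajb9 and Xbp1 had log2 ratios between 0.34 and 0.45, and their ratio intervals lay above 1. None of the 10 reached 1.5-fold higher, against 2.04% of all 12341 genes with at least 50 UMIs in this class. Atf5, Hspa1a and Hspa1b were at least 1.5-fold lower, against 8.39% of all genes. Over all genes of the class these counts were 252 higher and 1036 lower, or 396 and 809 when the library totals were scaled by TMM factors, under which Atf5 had a log2 ratio of -0.56 and was no longer past 1.5-fold. The median log2 ratio of the 10 genes was 0.26, beside -0.06 for all genes, of which 40.6% lay above 0. Over all kept nuclei the counts were 0 higher, against 1.7% of all 13945 genes, and 2 lower (Hspa1a and Hspa1b), against 7.55%. The excess of Hspa1a and Hspa1b UMIs sat in 2 nuclei of the library labelled Flox, and without them Atf5 was the only one of the 10 that was at least 1.5-fold lower. Atf5 was close to that line: its log2 ratio was also -0.56, no longer past 1.5-fold, among nuclei without a skeletal muscle marker UMI.

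**Figure D1:**
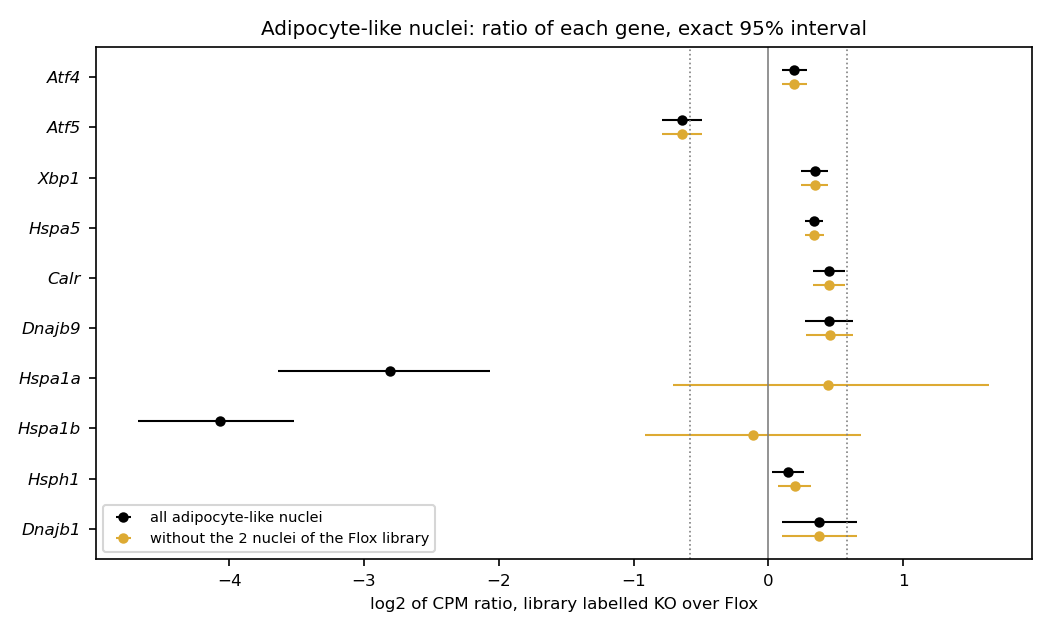
Log2 ratio of CPM, library labelled KO over Flox, of each gene in adipocyte-like nuclei (x axis), with exact 95% intervals as bars and 1.5-fold as dotted lines. Black points use all nuclei and yellow points leave out 2 nuclei of the library labelled Flox, which moves Hspa1a and Hspa1b to ratios whose intervals hold 0 and moves Hsph1 from 0.15 to 0.20.

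Hspa5 encodes BiP, the HSP70 of the ER lumen that holds the sensors inactive until unfolded protein draws it away. Its gene lies at chr2:34771970-34777547 on the plus strand (GENCODE vM21, mm10). In adipocyte-like nuclei it had 3142 UMIs in the library labelled Flox, or 112 CPM (108 to 115), and 4140 in the library labelled KO, or 141 CPM (137 to 145). The ratio was 1.26 (1.21 to 1.32), and all 4 adipocyte-like clusters lay on the same side, from a log2 ratio of 0.09 in cluster 1 to 0.40 in cluster 4. The ratio intervals of clusters 1 (0.83 to 1.37) and 3 (0.98 to 1.34) held 1. The UMIs were spread over 2409 and 2832 nuclei, with at most 6 and 7 in a single nucleus. The share of nuclei with a Hspa5 UMI was 27.0% and 34.3%, and after each nucleus was thinned to 1000 UMIs it was 10.2% (9.58 to 10.9) and 12.3% (11.6 to 13.1). Thinning left out 116 and 506 shallower nuclei, and the unthinned medians were 2751.5 and 3095 UMIs. No class of this tissue is known to lack these genes, so no share of nuclei can serve as a background of free RNA.

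Calr encodes calreticulin, a lectin chaperone of the ER that also binds calcium, and lies at chr8:84841850-84846934 on the minus strand. It stood at 35.9 CPM (33.7 to 38.1) in the adipocyte-like nuclei of the library labelled Flox and at 49.0 CPM (46.5 to 51.6) in those of the library labelled KO. The ratio was 1.37 (1.26 to 1.48), from 1011 UMIs in 901 nuclei and 1439 UMIs in 1220 nuclei. Clusters 2, 3 and 4 had log2 ratios of 0.48, 0.61 and 0.41, while cluster 1 was at -0.06 with 75 and 61 UMIs.

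Dnajb9, the ER cochaperone that returns IRE1 to its resting state together with BiP, had 445 UMIs in the adipocyte-like nuclei of the library labelled Flox and 634 in the library labelled KO. Its level was 15.8 CPM (14.4 to 17.3) and 21.6 CPM (19.9 to 23.3), a ratio of 1.37 (1.21 to 1.55). Cluster 2 stood furthest out at a log2 ratio of 0.67 and cluster 1 was lowest at 0.19. After thinning, the share of nuclei with a Dnajb9 UMI was 1.65% (1.39 to 1.93) and 1.96% (1.66 to 2.29), with overlapping intervals. The gene lies at chr12:44205559-44210326 on the minus strand.

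Promoter sequences are shown for Hspa5 and Calr because these are the 2 of the 10 genes whose windows hold the classic ER stress response element (ERSE), which ATF6 and XBP1 are known to bind. The windows run from 250 bases before to 50 bases after a gene's start (RefSeq, GRCm38.p6), and all 10 genes matched, with 13 windows in all. The 200 bases before the start are printed 5′ to 3′ on the gene's strand, with the ERSE match in capitals, for Hspa5 (chr2:34771890-34772089, plus strand) and Calr (chr8:84846932-84847131, minus strand).
Hspa5: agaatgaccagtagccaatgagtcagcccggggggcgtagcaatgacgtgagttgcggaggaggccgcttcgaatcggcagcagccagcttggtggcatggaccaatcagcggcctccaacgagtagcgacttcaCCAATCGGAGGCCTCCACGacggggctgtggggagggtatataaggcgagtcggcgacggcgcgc
Calr: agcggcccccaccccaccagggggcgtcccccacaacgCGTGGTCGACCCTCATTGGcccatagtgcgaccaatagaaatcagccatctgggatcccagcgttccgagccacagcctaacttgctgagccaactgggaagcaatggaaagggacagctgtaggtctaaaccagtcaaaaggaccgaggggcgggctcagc
The ERSE was searched on both strands as CCAAT and CCACG with 9 bases of any kind between them, and occurs in 39 of 32851 windows, or 0.119%. The match begins 65 bases before the start in Hspa5 and 162 before it in Calr, where it lies on the opposite strand, so the capitals there are its reverse complement. The element contains a CCAAT box, which alone occurs in 37.4% of windows and in 9 of the 10 genes. The UPR element TGACGTGG (0.676% of windows) and the C/EBP-ATF element TGATGNAAT (0.965%) matched in none of the 13 windows. The antioxidant element TGACNNNGC, the kind of site that NFE2L1 and small MAF proteins are known to bind, occurs in 12.4% of windows and matched in Calr, Hsph1 and Dnajb1. A match says only that these letters are in the window.

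Xbp1, the factor that IRE1 activates by splicing, lies at chr11:5520659-5525893 on the plus strand. In adipocyte-like nuclei it had 1360 UMIs in 1183 nuclei of the library labelled Flox and 1799 in 1445 nuclei of the library labelled KO. These are 48.2 CPM (45.7 to 50.9) and 61.2 CPM (58.4 to 64.1), a ratio of 1.27 (1.18 to 1.36). All 4 clusters were above 0, at 0.19, 0.54, 0.19 and 0.35. The ratio intervals of clusters 1 (0.90 to 1.46) and 3 (0.88 to 1.44) held 1. After thinning, cluster 3 went the other way, with an Xbp1 UMI in 4.3% (3.5 to 5.3) and 3.9% (2.3 to 6.3) of nuclei. Cluster 1, whose leading genes include Slc7a10 and Trhde, had the most Xbp1 of the adipocyte-like clusters in both libraries, with 119 and 136 CPM against 43.95 to 64.0 in the other 3.

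Atf4, the factor whose translation rises when eIF2 alpha is phosphorylated, differed least among the 3 stress factors. It lies at chr15:80255184-80257541 on the plus strand. Its level in adipocyte-like nuclei was 59.1 CPM (56.3 to 62.0) from 1667 UMIs and 67.6 CPM (64.6 to 70.6) from 1986 UMIs, a ratio of 1.14 (1.07 to 1.22). Cluster 1 went the other way, with 101 and 59 UMIs and a ratio of 0.69 (0.49 to 0.96), while clusters 2 and 4 were at 1.24 (1.08 to 1.42) and 1.21 (1.11 to 1.33). After thinning, 6.09% (5.60 to 6.61) and 6.73% (6.18 to 7.31) of adipocyte-like nuclei held an Atf4 UMI, with overlapping intervals. In cluster 1 the thinned shares were 8.5% (5.9 to 11.9) and 8.2% (5.2 to 12.3), also overlapping. The difference between clusters was not tested.

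Atf5, a relative of Atf4 that is translated under the same signal and is known for a stress response of mitochondria, was the ER stress gene that was lower in the library labelled KO. It had 914 UMIs in 803 of the adipocyte-like nuclei of the library labelled Flox, or 32.4 CPM (30.4 to 34.6), and 612 UMIs in 535 nuclei of the library labelled KO, or 20.8 CPM (19.2 to 22.5). The ratio was 0.64 (0.58 to 0.71). No nucleus held more than 6 of its UMIs, and the 4 clusters had log2 ratios of -0.47, -0.76, -0.83 and -0.60. The ratio interval of cluster 1 (0.43 to 1.17) held 1. After thinning, 3.20% (2.84 to 3.59) and 2.09% (1.78 to 2.43) of nuclei held an Atf5 UMI, in the same direction as the CPM. In cluster 1 the thinned share went the other way, at 2.47% (1.14 to 4.64) and 3.53% (1.63 to 6.59) with 9 nuclei in each library. Atf5 lies at chr7:44812256-44816658 on the minus strand, and its 5′ part shares 571 bases with Nup62 and 272 bases with Il4i1, both on the plus strand. Whether the counting used strand is not stated in the sources used here. Nup62, a nuclear pore gene, had 142 and 212 UMIs in adipocyte-like nuclei (log2 ratio 0.52), and Il4i1, an amino acid oxidase gene, had 110 and 72 (log2 ratio -0.67), both with far fewer UMIs than Atf5. Reads of the 3 genes in the shared bases cannot be told apart without strand.

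The make-up of the adipocyte-like class differed between the libraries. Cluster 3, led by guanylate-binding protein genes, held 23.1% of adipocyte-like nuclei in the library labelled Flox and 5.06% in the library labelled KO, and cluster 4, whose 10 leading genes include the haemoglobin genes Hbb-bs, Hba-a1, Hba-a2 and Hbb-bt, held 54.7% and 73.7%. With cluster 3 left out, the log2 ratios were -0.64 for Atf5, 0.24 for Atf4, 0.35 for Xbp1, 0.35 for Hspa5, 0.39 for Calr and 0.44 for Dnajb9. All 6 kept the direction they had in the whole class. Erythroid marker genes summed to 145 and 370 CPM in the class; they were at 223 and 557 CPM in cluster 4 and lower in the library labelled KO in clusters 1, 2 and 3. Their part in these ratios was not tested.

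**Figure D2:**
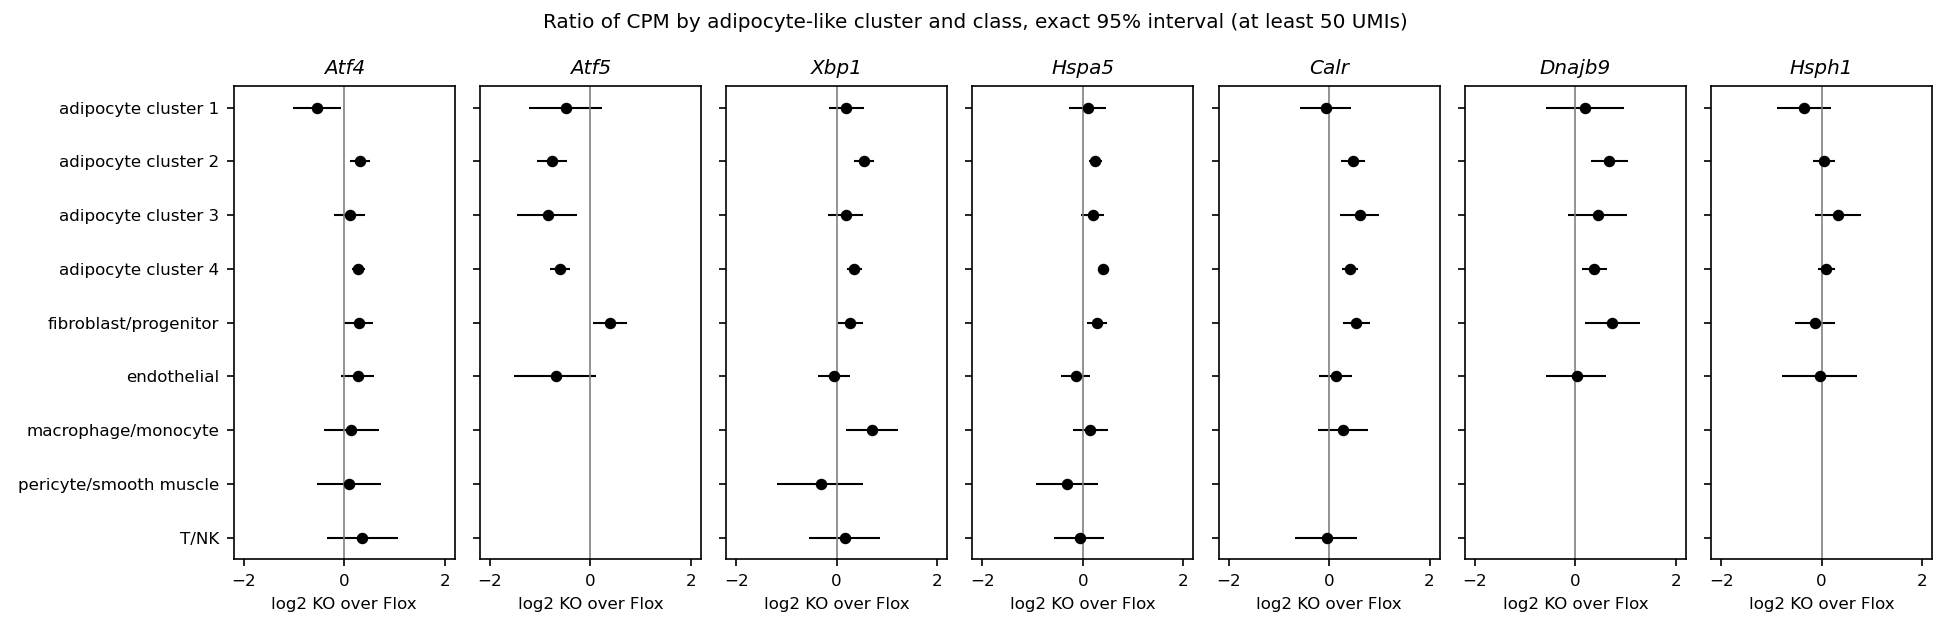
Log2 ratio of CPM, library labelled KO over Flox (x axes), of 7 genes in the 4 adipocyte-like clusters and 5 other classes (rows), with exact 95% intervals; only sums of at least 50 UMIs over both libraries are drawn. Atf5 lies below 0 in the adipocyte-like clusters and in endothelial-like nuclei and above 0 in fibroblast/progenitor-like nuclei.

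Hspa1a and Hspa1b encode the stress-inducible HSP70 and lie side by side on the minus strand of chromosome 17, at chr17:34969190-34972156 and chr17:34956436-34959238, with 9951 bases between them. Their 250 bases before the start are printed because the 2 genes stood high in the same nuclei; capitals mark the bases that differ between the 2, which are 98.8% identical over this stretch. They are Hspa1a (chr17:34972157-34972406) and Hspa1b (chr17:34959239-34959488), 5′ to 3′ on the minus strand.
Hspa1a: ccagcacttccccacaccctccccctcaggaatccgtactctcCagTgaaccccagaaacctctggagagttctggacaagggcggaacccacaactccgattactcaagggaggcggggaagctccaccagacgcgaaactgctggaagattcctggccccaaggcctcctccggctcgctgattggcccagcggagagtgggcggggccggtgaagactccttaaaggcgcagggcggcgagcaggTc
Hspa1b: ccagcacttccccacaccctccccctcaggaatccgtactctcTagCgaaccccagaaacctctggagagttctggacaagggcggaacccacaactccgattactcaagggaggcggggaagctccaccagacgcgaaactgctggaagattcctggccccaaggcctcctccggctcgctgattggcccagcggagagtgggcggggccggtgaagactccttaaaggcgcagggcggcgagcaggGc
The heat shock element that HSF1 is known to bind was searched as 3 alternating units of GAA and TTC, each pair with 2 bases of any kind between, and occurs in 0.603% of windows; of the 10 genes only Hsph1 matched, after its start. In a search of 2 units, GAANNTTC or TTCNNGAA, added after the first result was seen, 15.1% of windows matched, and so did both HSP70 genes, at GAAGATTC beginning 104 bases before the start, as well as Hsph1 and Atf5. The last 300 bases of the 2 transcripts aligned with 49.1% identity and the whole transcripts with 85.2%. Where reads fell in shared sequence, the split of counts between the 2 genes is uncertain. Gm20481, a gene that overlaps Hspa1a on the other strand, had 0 UMIs in adipocyte-like nuclei of both libraries.

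Hspa1b had 451 UMIs in the adipocyte-like nuclei of the library labelled Flox and 28 in those of the library labelled KO, or 16.0 CPM (14.6 to 17.6) and 0.95 CPM (0.63 to 1.38). These 451 UMIs sat in only 30 nuclei: 27 held 1, 1 held 2, 1 held 96 and 1 held 326. In the library labelled KO, 28 nuclei held 1 UMI each. The share of nuclei with a Hspa1b UMI was therefore 0.336% (0.227 to 0.479) and 0.339% (0.225 to 0.489), although the log2 ratio of the sums was -4.05. Hspa1a followed the same 2 nuclei. It had 114 UMIs in 14 nuclei of the library labelled Flox, of which 72 and 30 lay in the nuclei with 326 and 96 Hspa1b UMIs, and 17 UMIs in 16 nuclei of the library labelled KO. Without the 2 nuclei, Hspa1b had 29 and 28 UMIs (ratio interval 0.53 to 1.61) and Hspa1a 12 and 17 (0.61 to 3.12), so no difference was detectable at this depth.

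**Figure D3:**
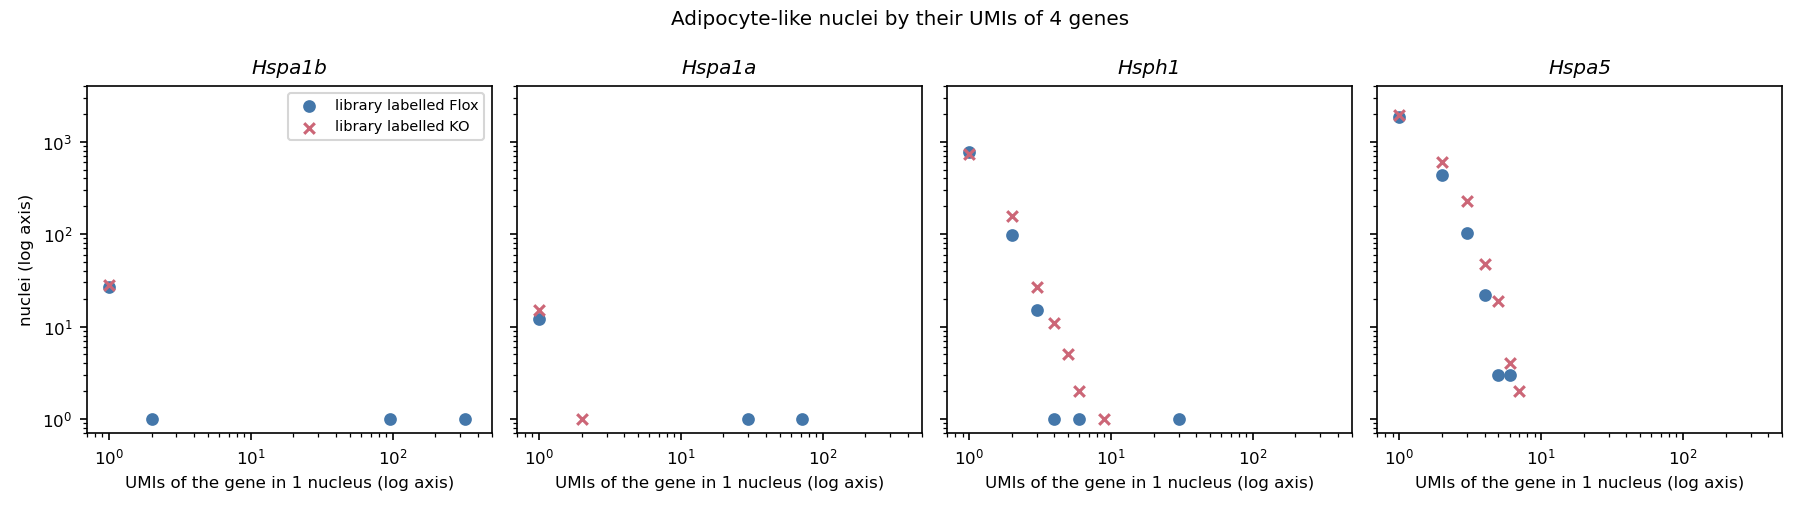
Number of adipocyte-like nuclei (y axis, log) that hold a given number of UMIs of Hspa1b, Hspa1a, Hsph1 and Hspa5 (x axis, log), in the library labelled Flox (dots) and KO (crosses); nuclei with 0 UMIs are not drawn. Single nuclei of the library labelled Flox lie apart at 96 and 326 Hspa1b UMIs, at 30 and 72 Hspa1a UMIs and at 30 Hsph1 UMIs, while Hspa5 reaches at most 7 UMIs in a nucleus.

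The 2 nuclei held other heat shock transcripts beside the HSP70 pair. The first (cluster 2) had 2764 UMIs in all and the second (cluster 4) 930, and 15.5% and 14.2% of these were of the 4 heat shock genes Hspa1a, Hspa1b, Hsph1 and Dnajb1. Hsph1, a nucleotide exchange factor for HSP70, had 30 and 6 UMIs there. Hsp90aa1, the stress-inducible cytosolic HSP90 gene, had 119 and 41, Hspb1, a small heat shock protein gene, 7 and 3, and Hspe1, the mitochondrial cochaperone of HSP60, 5 and 4. Hsp90ab1, the constitutive HSP90 gene, had 1 and 0 UMIs, and the heat shock factor genes Hsf1 and Hsf2 had 0 in both nuclei. Hspa8, Dnaja1, Hspd1 and Bag3 had 7, 5, 5 and 2 UMIs in the first nucleus and 0 in the second, shallower one. Dnajb1 had 0 UMIs in both, as did Atf4, Atf5, Xbp1 and Calr, while Hspa5 had 6 and 4. Genes outside the chaperones with at least 3 UMIs in both nuclei and far above the class level included 1700001K19Rik with 11 and 15 UMIs, the polyubiquitin gene Ubb with 11 and 3, and the translation factor gene Eif2s2 with 13 and 10; these were chosen after their values were seen. Doublet scores of the 2 nuclei were 0.027 and 0.024, below the lowest removed score of 0.32, and their mitochondrial UMIs were 0.40% and 0.86%. A profile in 2 nuclei of 1 library has no replicate.

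Outside these 2 nuclei, HSP70 transcripts were sparse everywhere. Over all other kept nuclei, 91 of the library labelled Flox and 85 of the library labelled KO held a UMI of either gene, and 1 and 2 held both. The highest Hspa1a level was in skeletal muscle-like nuclei, with 10 UMIs in 9 of 269 nuclei of the library labelled Flox, or 15.95 CPM (7.65 to 29.3), and 2 UMIs in 2 of 67 nuclei of the library labelled KO, or 12.3 CPM (1.49 to 44.6). Hspa1b had 1 UMI in these nuclei in each library. In fibroblast/progenitor-like nuclei Hspa1b had 10 UMIs in 9 nuclei and 18 in 16, a ratio of 2.30 (1.01 to 5.57) that is below the 50 UMI minimum. Schwann-like nuclei held no UMI of either gene in 84 and 49 nuclei, which allows up to 21.5 and 33.3 CPM at 3 UMIs.

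UMIs of Hsph1 and Dnajb1 were spread over more adipocyte-like nuclei than those of the HSP70 pair, although Hsph1 was also high in the same 2 nuclei. Hsph1 (chr5:149614287-149636376, minus strand) had 1056 UMIs in 891 of the adipocyte-like nuclei of the library labelled Flox and 1218 in 935 of the library labelled KO, or 37.5 CPM (35.2 to 39.8) and 41.4 CPM (39.1 to 43.8). Its ratio was 1.11 (1.02 to 1.20), and its log2 ratio of 0.15 became 0.20 without the 2 nuclei and 0.03 without cluster 3. In clusters 1, 2, 3 and 4 its log2 ratios were -0.34, 0.05, 0.35 and 0.10, and each ratio interval held 1. Dnajb1 (chr8:83608193-83612653, plus strand), the HSP40 that delivers clients to HSP70, had 191 UMIs in 174 nuclei and 259 in 235, with at most 3 in a nucleus. These are 6.78 CPM (5.85 to 7.81) and 8.81 CPM (7.77 to 9.95), a ratio of 1.30 (1.07 to 1.58). In clusters 1, 2, 3 and 4 the Dnajb1 log2 ratios were 0.235 (4 and 4 UMIs), 0.38, 0.67 and 0.27, and each ratio interval held 1.

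Levels of each gene were then set side by side over the 6 classes. Atf4 was nearly flat: classes ranged from 55.8 CPM in macrophage/monocyte-like to 81.7 CPM in pericyte/smooth muscle-like nuclei of the library labelled Flox, and the intervals of all neighbours in that order overlapped. Atf5 was highest in fibroblast/progenitor-like nuclei, with 39.1 CPM from Flox and 50.9 CPM (43.1 to 59.8) from KO. It was lowest in the library labelled Flox in macrophage/monocyte-like nuclei at 11.4 CPM (5.67 to 20.3). Xbp1 was lowest in the adipocyte-like nuclei of the library labelled Flox at 48.2 CPM, below endothelial-like nuclei at 73.8 CPM (64.1 to 84.6) and fibroblast/progenitor-like nuclei at 70.7 CPM (62.4 to 79.7).

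Hspa5 was highest in T/NK-like nuclei of the library labelled Flox, at 148 CPM (117 to 184), and in macrophage/monocyte-like nuclei of the library labelled KO, at 158 CPM (134 to 185). It was lowest in endothelial-like nuclei, at 91.6 CPM (80.7 to 103) and 82.8 CPM (70.7 to 96.4). Pericyte/smooth muscle-like nuclei were nearly level with them in the library labelled KO, at 83.0 CPM, and stood at 102.9 CPM in the library labelled Flox. Calr was likewise highest in T/NK-like nuclei, at 96.6 CPM (72.4 to 126) and 93.3 CPM (67.0 to 127), and adipocyte-like nuclei of the library labelled Flox were lowest at 35.9 CPM. Hsph1 showed another order: T/NK-like (43.7 CPM), adipocyte-like (37.5 CPM) and fibroblast/progenitor-like nuclei (34.8 CPM) had overlapping intervals in the library labelled Flox, and endothelial-like nuclei were lowest at 14.2 CPM (10.1 to 19.3). Dnajb1 stood the other way round in that library, with 13.5 CPM (9.54 to 18.5) in endothelial-like and 6.78 CPM in adipocyte-like nuclei. Dnajb9 in that library ran from 9.80 CPM (3.60 to 21.3) in pericyte/smooth muscle-like to 20.9 CPM (15.9 to 27.0) in endothelial-like nuclei. Each CPM is a share of the class total, so it also depends on the other genes of the class.

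**Figure D4:**
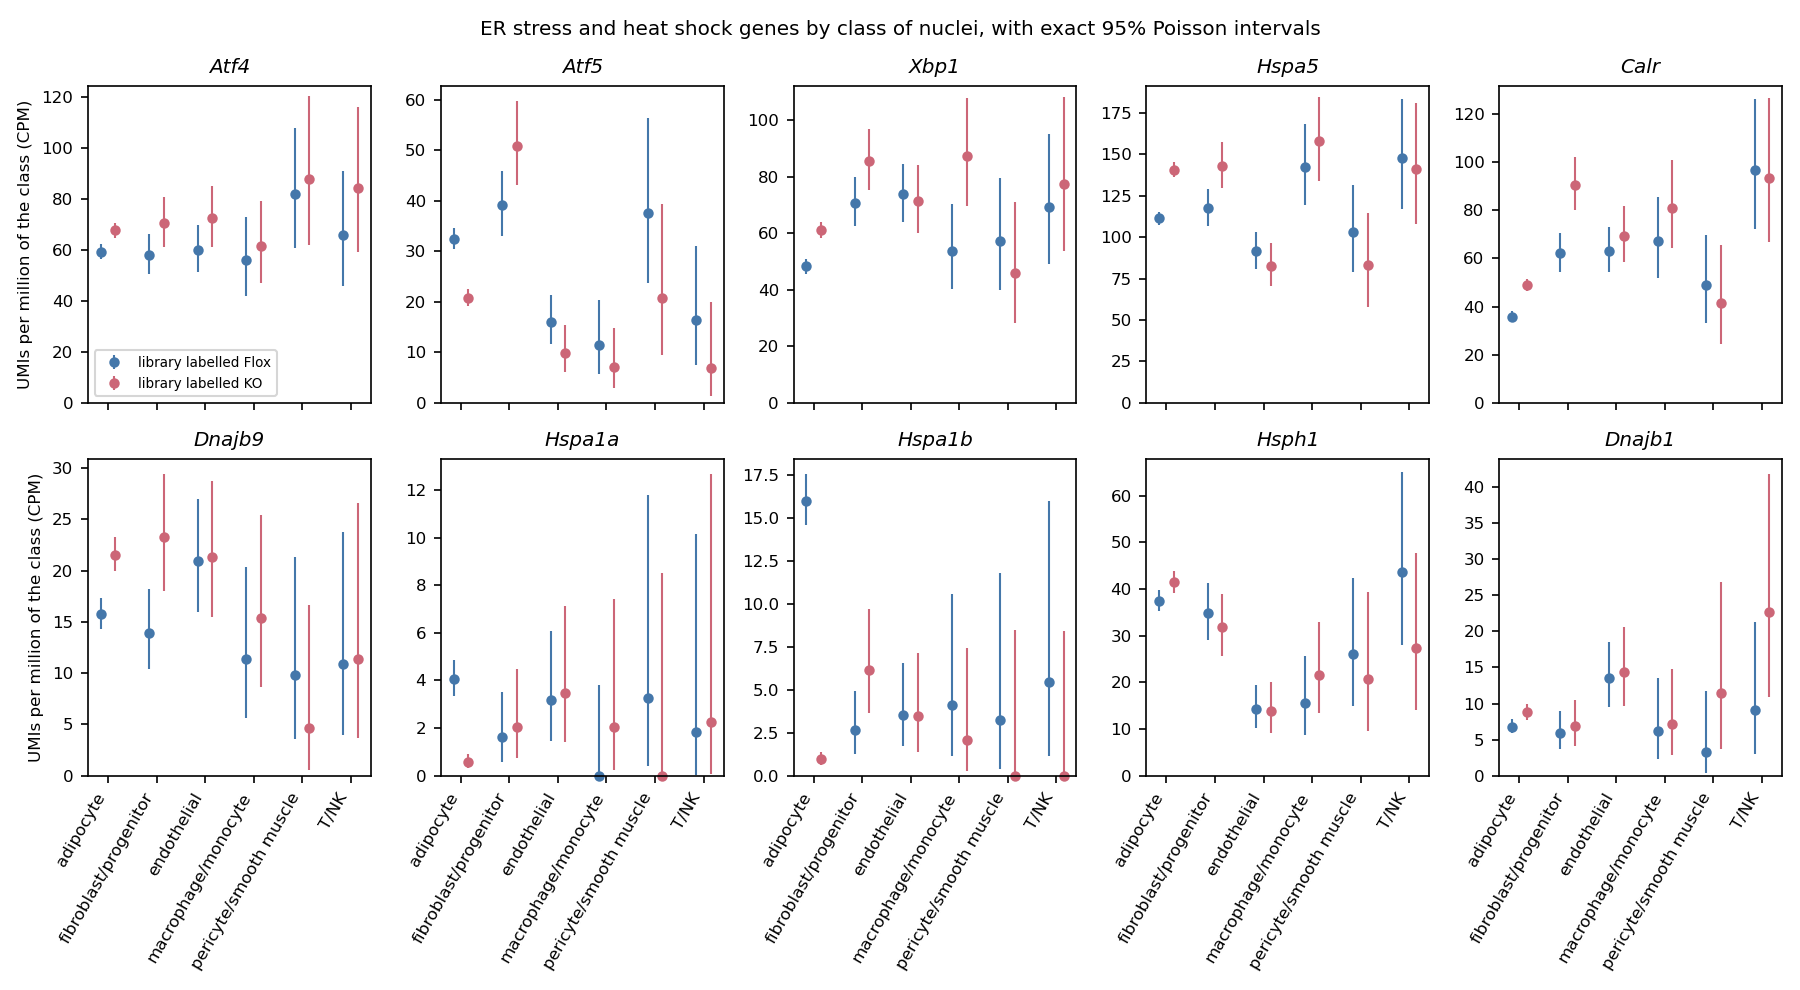
CPM of each of the 10 genes (y axes, linear from 0) in 6 classes of nuclei (x axes), in the library labelled Flox (blue) and KO (red), with exact 95% Poisson intervals as bars. Atf4 lies nearly level over the classes, and the blue Hspa1b point of adipocyte-like nuclei at 16.0 CPM rests on 2 nuclei. Atf5 is highest in fibroblast/progenitor-like nuclei, where its blue interval overlaps those of pericyte/smooth muscle-like and adipocyte-like nuclei.

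In fibroblast/progenitor-like nuclei, 7 of the 10 genes had at least 50 UMIs, and 6 of these lay above a log2 ratio of 0, where 45.7% of all genes of the class lay. Thinned log2 ratios were -0.09 for Atf4 (100 and 71 UMIs) and 0.01 for Hspa5 (196 and 150). They were 0.27 for Atf5 (58 and 53) and 0.58 for Xbp1 (90 and 102). Dnajb9 was the 1 gene past 1.5-fold higher, against 2.93% of all 10016 genes there, and none was past 1.5-fold lower, against 3.67%. Dnajb9 had 52 UMIs in 50 nuclei and 68 in 57, or 13.9 CPM (10.4 to 18.2) and 23.2 CPM (18.1 to 29.5), a ratio of 1.67 (1.15 to 2.44). After thinning it had 20 and 27 UMIs, too few to be counted, and a log2 ratio of 0.82, and Calr was past 1.5-fold at 0.72. Calr was next at 62.1 CPM (54.4 to 70.6) and 90.6 CPM (80.0 to 102), a ratio of 1.46 (1.22 to 1.75). Both were furthest apart in cluster 6, the progenitors led by Dpp4 and Pi16, where the log2 ratio was 1.21 for Dnajb9 (15 and 35 UMIs) and 0.74 for Calr (73 and 121 UMIs). Atf5 was above 0 in this class, with 146 UMIs in 130 nuclei and 149 in 133, a ratio of 1.30 (1.03 to 1.65). Clusters 5 and 6 gave 0.44 and 0.36. After thinning, 3.60% (2.72 to 4.66) and 4.40% (3.29 to 5.74) of nuclei of the class held an Atf5 UMI, with overlapping intervals, and in cluster 6 the shares were 3.90% and 2.38%, the other way.

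In endothelial-like nuclei, 8 genes had at least 50 UMIs and 4 of them lay above 0, beside 43.1% of all genes. Atf5 was the 1 gene past 1.5-fold lower, against 9.62% of all genes there, with 45 and 20 UMIs and a ratio of 0.62 (0.35 to 1.07) whose interval holds 1. This call ended at log2 ratios of -0.54 with mean CPM, and at fewer than 50 UMIs with the stricter filters (-0.43), classes from marker scores (-0.57), thinning (-1.02, from 15 and 5 UMIs) and without nuclei with a muscle marker UMI (-0.94). None was past 1.5-fold higher, against 2.78%. Hspa5, at 0.90 (0.74 to 1.10), and Xbp1, at 0.97 (0.78 to 1.20), had intervals that hold 1 here, unlike in adipocyte-like nuclei. The difference between the classes was not tested.

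In macrophage/monocyte-like nuclei, Atf4, Xbp1, Hspa5 and Calr had at least 50 UMIs and all 4 lay above 0, beside 48.3% of all genes. The ratio intervals of Atf4 (0.75 to 1.63), Hspa5 (0.88 to 1.41) and Calr (0.86 to 1.70) hold 1. After thinning, Hspa5 was at -0.27 (64 and 42 UMIs) and Calr at -0.04 (26 and 20), while Atf4 was at 0.40 (20 and 21). Xbp1 was past 1.5-fold higher, against 4.56% of all genes there, and none was past 1.5-fold lower, against 4.55%. Xbp1 had 52 UMIs in 46 of 499 nuclei and 85 in 69 of 365. Its level was 53.7 CPM (40.1 to 70.4) and 87.2 CPM (69.7 to 108), a ratio of 1.62 (1.14 to 2.34). With classes from marker scores its log2 ratio was 0.52, under 1.5-fold, and after thinning it was 1.49 from 14 and 32 UMIs, too few to be counted. In T/NK-like nuclei, 4 genes had at least 50 UMIs and none was 1.5-fold apart, against 7.96% of all genes higher and 8.39% lower. In pericyte/smooth muscle-like nuclei, 3 genes had that many and none was 1.5-fold apart, against 5.15% and 6.63%. Their intervals are wide: Hspa5 in pericyte/smooth muscle-like nuclei had 63 and 36 UMIs and a ratio of 0.81 (0.52 to 1.23).

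Other genes of the same pathways were taken from 7 lists. Beside them, 2.04% of all 12341 genes of adipocyte-like nuclei were past 1.5-fold higher and 8.39% lower, with a median log2 ratio of -0.06. Among 11 UPR sensors and integrated stress response genes in adipocyte-like nuclei, 1 was past 1.5-fold higher and none lower, with a median log2 ratio of 0.00. That gene was Ppp1r15b, the constitutive regulator of the eIF2 alpha phosphatase, at 52.8 and 85.7 CPM in 1293 and 1920 nuclei (log2 ratio 0.70). The inducible Ppp1r15a had 7.63 and 6.09 CPM (-0.32). The sensors themselves were near even: Ern1 (IRE1) at -0.13, Eif2ak3 (PERK) at 0.01 and Atf6 at -0.01.

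ER chaperones and folding enzymes had 19 of 20 genes at 50 UMIs, none past 1.5-fold either way, 13 above 0 and a median of 0.06. Hspa13, an HSP70-like protein of the ER, was highest at 0.54 (144 and 219 UMIs), Hyou1, the exchange factor of BiP, was at 0.50, and Dnajc1, an ER DnaJ protein, was lowest at -0.28. XBP1 target genes of transport and lipid supply had 25 of 25 genes at 50 UMIs, none past 1.5-fold, 21 above 0 and a median of 0.20. Ssr3, a subunit of the translocon-associated complex, was highest at 0.51 and Sec24d, a COPII coat gene, lowest at -0.32. Of the ATF4 target genes, 25 of 32 had 50 UMIs, with 1 past 1.5-fold higher, none lower, 11 above 0 and a median of -0.05. Cebpb, a transcription factor of adipocyte differentiation, was that gene at 57.8 and 139 CPM in 1388 and 2750 nuclei (1.26), and the amino acid synthesis genes Asns, at -0.13, and Phgdh, at -0.47, lay below 0.

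Heat shock factors and cytosolic chaperone genes other than the 10 had 18 of 19 genes at 50 UMIs, none past 1.5-fold and a median of 0.01. Dnaja4, an HSP40, was highest at 0.55 and Dnajb2 lowest at -0.39. Hsp90aa1 moved from -0.23 to -0.03 without the 2 nuclei, which held 160 of its 1195 UMIs in the library labelled Flox. Mitochondrial chaperones and proteases had 14 genes, none past 1.5-fold and a median of 0.00, with Hspe1 highest at 0.50 and Grpel2, a nucleotide exchange factor, lowest at -0.37.

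Cochaperones and small heat shock proteins had 20 of 21 genes at 50 UMIs and a median of -0.12, and Fkbp5, a cochaperone of HSP90, was highest at 0.27. None was past 1.5-fold higher and 4 were lower, against 2.04% and 8.39% of all genes of the class. The 4 were small heat shock protein genes known for their expression in muscle. Hspb8 had 89 UMIs in 86 nuclei of the library labelled Flox and 9 in 9 nuclei of the library labelled KO (log2 ratio -3.30), and Hspb7 had 57 in 49 and 15 in 14 (-1.95). Hspb6 had 138 and 76 UMIs (-0.92) and Cryab 142 and 97 (-0.61). Skeletal muscle marker genes summed to 274 CPM in the adipocyte-like nuclei of the library labelled Flox and 98.0 CPM in those of the library labelled KO, and 41.05% and 22.15% of these nuclei held at least 1 such UMI. The share was alike in the other 5 classes, from 38.1% to 46.5% in the library labelled Flox and from 18.1% to 27.65% in the library labelled KO. Among nuclei without a muscle marker UMI, Hspb8 stood at 2.54 and 0.27 CPM (41 and 6 UMIs), Hspb7 at 1.43 and 0.31 CPM (23 and 7), Hspb6 at 4.77 and 2.65 CPM (77 and 59) and Cryab at 3.78 and 3.10 CPM (61 and 69). The part of muscle RNA in these 4 ratios was not tested otherwise. In the same nuclei without a muscle marker UMI, the log2 ratio was -0.56 for Atf5, under 1.5-fold, 0.27 for Hspa5 and 0.44 for Calr.

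**Figure D5:**
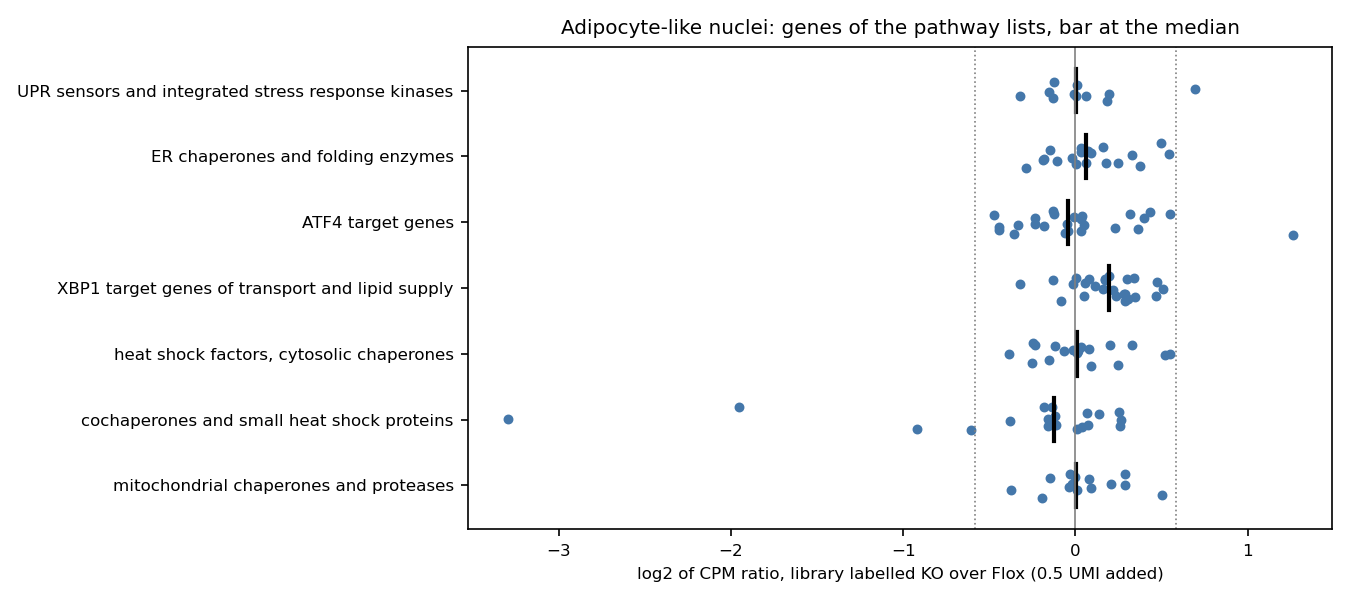
Log2 ratio of CPM, library labelled KO over Flox (x axis), of each gene of the 7 pathway lists in adipocyte-like nuclei with at least 50 UMIs (dots, spread vertically for sight), with the list's median as a bar and 1.5-fold as dotted lines. Lists centre near 0 except for the XBP1 target genes, with a median of 0.20, and the cochaperones and small heat shock proteins, whose dots at -3.30 and -1.95 are Hspb8 and Hspb7.

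In the other classes, the list gene furthest higher was Ddit4, a stress-induced inhibitor of mTORC1, in 3 of 5. It had 285 and 455 UMIs in endothelial-like nuclei (101 and 226 CPM, log2 ratio 1.16), 75 and 144 in fibroblast/progenitor-like nuclei (1.29) and 32 and 90 in macrophage/monocyte-like nuclei (1.47). In adipocyte-like nuclei it had 161 and 227 UMIs (0.43), below 1.5-fold. Fkbp5 was furthest higher in T/NK-like nuclei (0.67) and Hspa8, the constitutive HSP70, in pericyte/smooth muscle-like nuclei (0.93, 51 and 69 UMIs). Furthest lower were Nupr1, a stress-induced chromatin factor, in endothelial-like nuclei (64 and 11 UMIs, -2.005), Hsf2 in macrophage/monocyte-like nuclei (36 and 16, -1.16), Dnajb4 in T/NK-like nuclei (61 and 24, -1.01), Grpel2 in fibroblast/progenitor-like nuclei (80 and 36, -0.79) and Afg3l2, a mitochondrial protease gene, in pericyte/smooth muscle-like nuclei (52 and 21, -0.79). In the other classes at most 2 genes were higher and 4 lower in any list. In endothelial-like nuclei, where 9.62% of all genes were past 1.5-fold lower, these were 4 of 16 ATF4 target genes (median -0.22) and 3 of 14 mitochondrial chaperone and protease genes, of which 2 lay above 0 (median -0.38, beside -0.05 for all genes). The XBP1 target genes had medians above 0 outside adipocyte-like nuclei as well. These were 0.17 in endothelial-like (19 of 25 above 0), 0.20 in macrophage/monocyte-like (13 of 19) and 0.13 in fibroblast/progenitor-like nuclei (17 of 24). In pericyte/smooth muscle-like nuclei the median was 0.03 (5 of 9) and in T/NK-like nuclei -0.10 (3 of 8).

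Likeness of pattern was measured as Pearson's r of log2(CPM + 1) over 12 points, the 6 classes in the 2 libraries, among genes with at least 500 UMIs. Points share libraries and depth, so r is a description. The closest genes were Aamp (0.89) for Atf4, Ttc21b (0.95) and Trhde (0.93) for Atf5, and Polr1f (0.89) and Pdia6 (0.88) for Xbp1. Pdia6, an ER disulfide isomerase, belongs to the ER chaperone list. For Hspa5 they were G6pdx (0.94) and Setdb1 (0.91), for Calr Nsa2 (0.90), for Dnajb9 Trib3 (0.91), an ATF4 target, for Hsph1 Scaf8 (0.95), and for Dnajb1 Nop53 (0.91). Hspa1b had P2rx6 at 0.80, over a pattern in which 2 nuclei set 1 of the 12 points.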

How the data were processed

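The deposited values were raw UMI counts per gene and barcode, produced by the authors in Cell Ranger (version 5.0.0 per the file headers), on mm10 per the submitters' processing notes. Annotation, intron and strand settings are not stated in the sources used here. Barcodes under 200 genes or over 10% mitochondrial UMIs were removed (99 and 129), then the highest Scrublet doublet scores (2060 and 1331; 0.8% expected per 1000 barcodes). Counts were clustered in scanpy 1.11.5 (2000 variable genes, 30 components, Leiden resolution 0.5, leidenalg 0.10.2), with no batch correction. Names of clusters came from 16 marker lists and needed at least 3 markers 2-fold over the median cluster. The T/NK-like cluster also held mast cell markers. UMIs were summed per class and library. Exact Poisson, binomial (ratio) and Clopper-Pearson (share) intervals cover counting error only, and arms with 0 UMIs have a floor of 3. The members, lists and motifs were chosen with earlier results of these data known. Genes named were the 10 members and, per list, the 2 furthest each way in adipocyte-like nuclei past 1.5-fold with 50 UMIs (otherwise 1), and 1 each way in other classes; the sensors, Asns, Hyou1, Hspb6, Cryab, Hsp90aa1 and the overlapping genes were named after their values were seen. The calculation was tested on simulated counts. Alternatives were stricter filters, doublets kept, resolutions 0.3 and 1.0, marker-score classes, TMM factors (edgeR 4.0.16), trimmed totals, mean CPM, leaving out the nucleus with most UMIs, thinning, and other minimum and added counts; leaving out the 2 heat shock nuclei, cluster 3 or nuclei with a muscle marker UMI was added after seeing the data. Python 3.11.15 was used with SciPy 1.17.1, NumPy 2.4.6, Biopython 1.88, pandas 2.3.3 and matplotlib 3.10.9.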

Additional observations from a re-analysis of the deposited data

Results flagged for a closer look

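Atf5 stood on opposite sides of even in 2 classes. Its log2 ratio, KO over Flox, was -0.64 in adipocyte-like nuclei and 0.38 in fibroblast/progenitor-like nuclei, and neither interval held 0 (ratios of 0.58 to 0.71 and 1.03 to 1.65). With 1 library per genotype the difference between the classes was not tested. The ratio was below 1 in all 4 adipocyte-like clusters, where the interval of cluster 1 (0.43 to 1.17) holds 1. It was above 1 in fibroblast/progenitor-like clusters 5 and 6, where the interval of cluster 6 (0.82 to 2.04) holds 1. After each nucleus was thinned to 1000 UMIs, the shares of nuclei with an Atf5 UMI in the fibroblast/progenitor-like class had overlapping intervals (2.72% to 4.66% and 3.29% to 5.74%), and cluster 6 went the other way, at 3.90% and 2.38%. Adipocyte-like cluster 1 also went the other way from its class, at 2.47% and 3.53%, with 9 nuclei in each library. Nfe2l1 had a log2 ratio of 1.26 in adipocyte-like and 0.09 in fibroblast/progenitor-like nuclei, and its part in the Atf5 values was not tested.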

How the results depend on the processing

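Of 140 recomputed log2 ratios of the 10 genes in adipocyte-like nuclei, 127 moved by less than the half-width of their counting interval and 11 by more, and 2 changed sign: Hspa1a was at 0.44 with classes from marker scores per nucleus and at 0.43 without the 2 nuclei with at least 5 UMIs of Hspa1a or Hspa1b. Over 11 settings other than the 3 chosen after seeing the data, Atf5 stayed between -0.76 and -0.56, Hspa5 between 0.30 and 0.42, Calr between 0.38 and 0.53, Xbp1 between 0.24 and 0.42, and Hsph1 between 0.00 and 0.30. All 98 recomputed list medians moved by less than the median half-width of their genes' intervals. Of 158 recomputed counts of members past 1.5-fold, 19 moved by more than 1.5 times. In adipocyte-like nuclei the count lower fell from 3 to 1 with marker scores and to 1 without the 2 nuclei (Atf5 in both), and to 1 without nuclei with a muscle marker UMI (Hspa1b). It was 2 with TMM factors, where Atf5 was at -0.56, and 2 after thinning, where Hspa1a had 29 UMIs. Over all genes of the class the count lower went from 1036 to 855 with marker scores and 1029 without the 2 nuclei. It was 881 without nuclei with a muscle marker UMI, 809 with TMM factors and 647 after thinning. In endothelial-like nuclei the count lower fell from 1 to 0 with the stricter filters, marker scores, mean CPM, thinning, and without nuclei with a muscle marker UMI, and the count higher went from 0 to 1 with doublets kept. In fibroblast/progenitor-like nuclei the count higher went from 1 to 2 with mean CPM and with a minimum of 20 UMIs. It was also 2 without nuclei with a muscle marker UMI, and the count lower went from 0 to 1 with marker scores. Over all genes there, the count higher went from 293 to 360, 552 and 322 in that order, and the count lower from 368 to 381. In macrophage/monocyte-like nuclei the count higher fell from 1 to 0 with marker scores and thinning, and the count lower went from 0 to 1 with doublets kept. With a minimum of 20 UMIs the count lower was 1 in T/NK-like and in pericyte/smooth muscle-like nuclei. In the latter it was also 1 with marker scores. Over all genes these counts went from 406 to 950, from 297 to 850 and from 297 to 373. After thinning, the counts lost had fewer than 50 UMIs. The log2 ratio was further from 0 than before for Atf5 in endothelial-like nuclei (-1.02 from 20 UMIs). The same held for Xbp1 in macrophage/monocyte-like nuclei (1.49 from 46 UMIs). For Hspa1a in adipocyte-like nuclei it was nearer to 0, at -1.97 from 29 UMIs after -2.77. Moves with the minimum of 20 UMIs come from counting more genes, and the cause of the others was not tested. Over all genes of endothelial-like nuclei, the count lower went from 869 to 605 with the stricter filters, 713 with marker scores and 885 with mean CPM. It was 506 after thinning and 637 without nuclei with a muscle marker UMI. In macrophage/monocyte-like nuclei the count higher over all genes went from 286 to 285 with marker scores and 140 after thinning. The count lower there went from 285 to 591 with doublets kept. TMM factors moved the median of all genes in adipocyte-like nuclei by 0.08 and the genes past 1.5-fold from 252 higher and 1036 lower to 396 higher and 809 lower. Shares of nuclei with a UMI were higher without thinning for all 10 genes. No paired analysis was possible because each genotype has 1 library, and no replicate could be left out. Sums under 50 UMIs, which include Hspa1a and Hspa1b in the 5 compared classes other than adipocyte-like, were not counted as higher or lower.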
